A study of Homo sapiens with 4 samples.

Results

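The expression of 10 genes of transforming growth factor beta (TGF-beta) signaling was described in 4 human hepatoma cultures. The genes were taken by symbol from the deposited read counts, and all 10 were found among the 16370 genes listed in any culture. They comprised the ligands TGFB1 and TGFB2, the receptors TGFBR1 and TGFBR2, the receptor-activated SMAD2 and SMAD3, the common partner SMAD4, the inhibitory SMAD6 and SMAD7, and ID1, a transcriptional target of the related bone morphogenetic proteins (BMPs). Hep3B and Huh7, established hepatoma cell lines, formed the hepatocellular carcinoma (HCC) group. Hep3B-C and Huh7-C, stem-like cultures that the study had enriched from them, formed the hepatic cancer stem cell (HCSC) group. There was 1 library per culture and no treatment or time label, and each HCSC culture was read against the line it came from. Each HCSC line was therefore 1 derivation from 1 parental line, and a difference between an HCSC line and its parent had no replicate check.

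TGF-beta ligands are secreted in a latent form and, once released, bring TGFBR2, a constitutively active kinase, together with the kinase TGFBR1. The activated TGFBR1 phosphorylates SMAD2 and SMAD3, which bind SMAD4 and act on target genes in the nucleus, whereas SMAD7 is induced by the pathway and acts back on the receptors. In liver, TGF-beta restrains hepatocyte growth and can trigger apoptosis, while in advanced liver tumors it is known for promoting mesenchymal features and invasion.

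Total gene counts were between 2896418 (Hep3B) and 4641927 (Hep3B-C). A gene with 3 counts stood at between 0.646 and 1.04 CPM (counts scaled to a common library total), and this level was taken as the floor of a library, against which folds of genes with no counts were set. All 10 hepatocyte markers checked had at least 3 counts in every library. Their summed level was between 26830 CPM in Huh7-C and 62840 CPM in Hep3B-C. AFP, the fetal albumin-like protein of hepatoma cells, stood at 5584 and 905 CPM in Hep3B and Hep3B-C, against 5.73 and 2.77 CPM in Huh7 and Huh7-C. ALB stood at 19540, 18470, 106 and 267 CPM and TTR had 119, 390, 13 and 13 counts in Hep3B, Hep3B-C, Huh7 and Huh7-C. Huh7 is known as a line that makes AFP and albumin, so these low levels go against its label, and the results of the Huh7 pair are those of the libraries labelled Huh7 and Huh7-C. The summed level of 8 mesenchymal and stellate markers, 6 of which were listed, was 513, 76.3, 797 and 744 CPM in Hep3B, Hep3B-C, Huh7 and Huh7-C, mostly VIM. Of this list 4, 3, 3 and 3 genes had at least 3 counts in the same order, and DCN and ACTA2 were listed in none of the libraries. VIM fell from 498 CPM in Hep3B to 65.5 CPM in Hep3B-C, while PDGFRB stood at 9.67 and 9.69 CPM. In the Huh7 pair PDGFRB had 186 and 2 counts and was called down, and COL3A1 had 0 and 58 counts and was called up. Of the endothelial list, 1 of 4 genes (PECAM1) reached 3 counts in each library, at a summed level of between 2.80 and 21.5 CPM, and CDH5 was not listed. The highest sum was that of Huh7-C, where PECAM1 was called up (17 and 93 counts in Huh7 and Huh7-C, FDR 1.8e-13). Of the 4 leukocyte markers PTPRC and CD3E were not listed, and 2, 2, 1 and 1 reached 3 counts, with sums of 213, 180, 52.0 and 91.1 CPM that were nearly all LYZ (212, 179, 52.0 and 90.9 CPM). The 3 biliary markers summed to 280, 94.6, 58.8 and 91.1 CPM, with 2, 2, 1 and 2 genes at 3 counts or more, and KRT19 and SOX9 were both called down in Hep3B-C (log2 fold-changes -1.94 and -1.46). The lower mesenchymal and biliary sums in Hep3B-C went with the lower levels described below for that line, and their part in them was not tested. In bulk RNA, fewer cells of a type and less RNA per cell cannot be told apart.

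Promoter sequences are shown for the genes on which the results turned, which are both ligands, SMAD3, SMAD7 and the target ID1. Each is the RefSeq window (GRCh38.p14) from 250 bases before to 50 bases after the most upstream listed start, 5′ to 3′ on the strand of the gene. Capitals mark matches to the palindromic SMAD-binding sequence GTCTAGAC, to its shorter core CAGAC on either strand (read as CAGAC or GTCTG), or to GGCGCC, a GC-rich element of BMP targets. Every GTCTAGAC contains part of the core without holding it in full, and GGCGCC reads the same on both strands.
TGFB1: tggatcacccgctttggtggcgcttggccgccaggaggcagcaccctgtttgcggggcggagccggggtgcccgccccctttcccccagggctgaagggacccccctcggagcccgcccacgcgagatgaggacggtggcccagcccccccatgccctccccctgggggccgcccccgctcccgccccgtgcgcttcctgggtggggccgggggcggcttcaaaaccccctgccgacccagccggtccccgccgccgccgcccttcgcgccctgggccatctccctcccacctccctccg
TGFB2: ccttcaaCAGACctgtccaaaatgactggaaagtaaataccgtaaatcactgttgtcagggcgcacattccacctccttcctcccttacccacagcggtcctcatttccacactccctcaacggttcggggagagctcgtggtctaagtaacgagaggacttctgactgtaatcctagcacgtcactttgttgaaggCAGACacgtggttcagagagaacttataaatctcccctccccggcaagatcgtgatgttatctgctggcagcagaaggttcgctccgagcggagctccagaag
SMAD3: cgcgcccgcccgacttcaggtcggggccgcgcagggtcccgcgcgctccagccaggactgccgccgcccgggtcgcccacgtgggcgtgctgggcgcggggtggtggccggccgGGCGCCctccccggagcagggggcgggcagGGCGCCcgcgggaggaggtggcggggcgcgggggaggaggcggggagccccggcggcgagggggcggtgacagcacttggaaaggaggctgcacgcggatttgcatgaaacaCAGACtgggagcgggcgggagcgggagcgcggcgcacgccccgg
SMAD7: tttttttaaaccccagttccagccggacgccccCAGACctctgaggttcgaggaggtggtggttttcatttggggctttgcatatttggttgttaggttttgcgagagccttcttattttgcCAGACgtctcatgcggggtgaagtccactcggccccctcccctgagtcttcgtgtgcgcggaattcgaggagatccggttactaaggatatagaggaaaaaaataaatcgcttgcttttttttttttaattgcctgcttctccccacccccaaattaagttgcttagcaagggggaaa
ID1: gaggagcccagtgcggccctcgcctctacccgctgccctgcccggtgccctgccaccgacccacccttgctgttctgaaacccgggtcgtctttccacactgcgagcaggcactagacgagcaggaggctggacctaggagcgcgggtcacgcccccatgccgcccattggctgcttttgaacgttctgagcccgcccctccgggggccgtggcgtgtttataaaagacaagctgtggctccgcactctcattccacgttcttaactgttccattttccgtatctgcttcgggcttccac
The TGFB1 window lies at chr19:41353873-41354172 on the minus strand and was 77.3% GC, with no match. The TGFB2 window, at chr1:218345086-218345385 on the plus strand, held CAGAC beginning 243 and 53 bases before the start. The SMAD3 window, at chr15:67065352-67065651 on the plus strand, was 80.3% GC and held GGCGCC beginning 136 and 106 bases before the start, and CAGAC past it. The SMAD7 window, at chr18:48950916-48951215 on the minus strand, held the core CAGAC beginning 217 and 128 bases before the start. The ID1 window, at chr20:31605039-31605338 on the plus strand, held none of the 3 motifs.

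All 10 genes matched the RefSeq promoter table, with 25 windows between them. At the most upstream start, GTCTAGAC was in 1 window (SMAD6, beginning 12 bases before the start), CAGAC or its complement in 3 and GGCGCC in 3 of the 10. Over all 35116 promoter windows, the shares were 0.2%, 45.3% and 19.2%. A match is a stretch of letters in the window and was not tied to binding in these cultures.

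Levels were first ordered within each library per length, as CPM divided by the gene length in kilobases (RPKM). ID1 had the highest RPKM of the 10 genes in both HCC lines, at 65.0 in Hep3B and 151 in Huh7, followed by TGFB1 at 40.5 and 74.9. In Hep3B-C the order opened with TGFB1 at 191 RPKM, and ID1, at 0.705 RPKM, did not differ from its neighbors TGFBR1 and SMAD6 beyond the counting intervals. In Huh7-C, TGFBR2 at 63.6 and ID1 at 63.5 RPKM had overlapping intervals at the top of the order. TGFB1, TGFBR2 and SMAD3 stood above SMAD2, SMAD4, TGFBR1, SMAD6, SMAD7 and TGFB2 in all 4 libraries. SMAD3 had the lowest RPKM of the first 3 genes throughout, between 4.22 in Hep3B-C and 21.2 in Hep3B. At the lower end, SMAD6, SMAD7 and TGFB2 were under 5 RPKM in every library, and neighbors among them had overlapping intervals in Hep3B-C and Huh7-C.

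**Figure D1:**
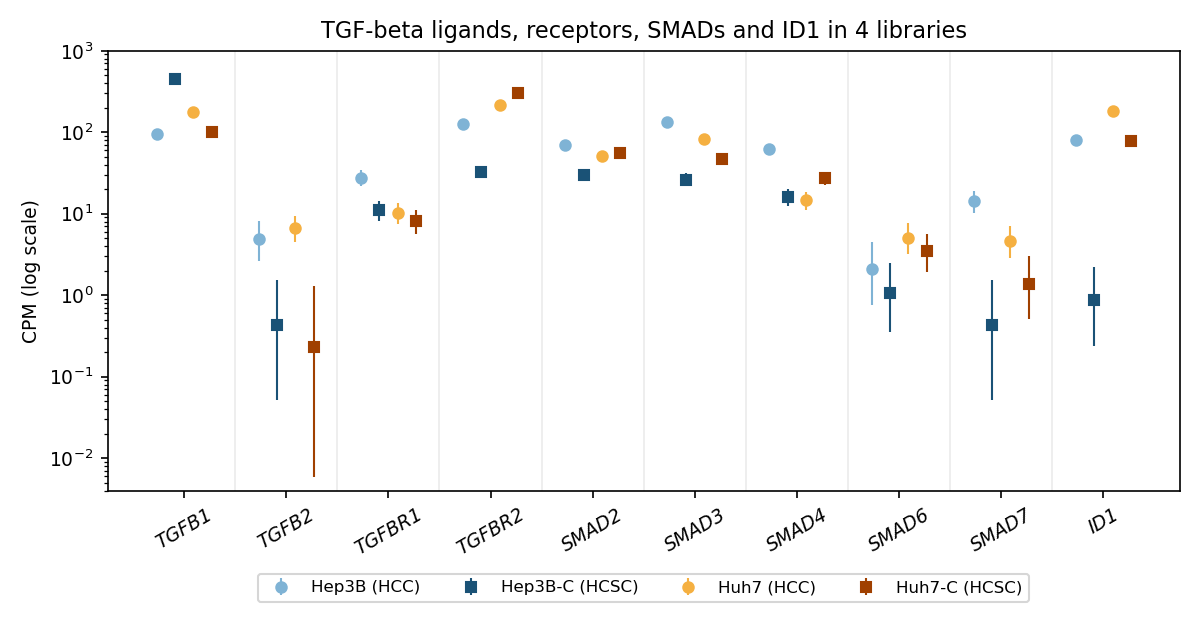
Level of each of the 10 genes in CPM (log axis) in the 4 libraries, with circles for HCC, squares for HCSC and bars for the exact 95% counting interval. TGFB1 is highest in Hep3B-C at 447 CPM, ID1 falls below 1 CPM in Hep3B-C alone, and TGFB2 is lower in both HCSC libraries than in either HCC library.

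Each HCSC library was then compared with its parental library by the Audic-Claverie test, which sets a pair of counts against their totals. A gene was called at a false discovery rate (FDR, Benjamini-Hochberg over all genes of the pair) no higher than 0.01, if its log2 fold-change was also 1 or more in size. The test compares 2 libraries, and its FDR and intervals cover counting error only. In the Hep3B pair, 8 of the 10 genes were called down-regulated, 1 (TGFB1) was called up-regulated and SMAD6 was not called. Of all 15480 genes in that pair, 30.4% were called down and 13.2% up, 43.6% in all, so calls were frequent in this pair whatever the gene. In the Huh7 pair, 2 of the 10 genes (TGFB2 and ID1) were called down and none up, where 4.15% of 14807 genes were called down, 4.19% up and 8.33% either way. The median log2 fold-change of the 10 genes was -1.95 in the Hep3B pair and -0.67 in the Huh7 pair, beside -0.68 and 0.07 over all genes.

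TGFB1, whose product is the most widely expressed TGF-beta ligand, had fold-changes of opposite sign in the 2 pairs. Its counts were 275 (Hep3B), 2075 (Hep3B-C), 797 (Huh7) and 437 (Huh7-C), or 94.9, 447, 176 and 101 CPM. Hep3B-C stood above the other 3 libraries, and Huh7-C lay close to Hep3B. TGFB1 rose 4.71-fold in Hep3B-C (95% counting interval 4.15 to 5.36, log2 fold-change 2.23, SE 0.09, FDR 6.5e-183), and 95.7% of the genes of that pair with at least 20 counts had a lower fold-change. With GC and length trends removed the value was 0.76, and the call was lost. The level in Huh7-C was 1.74-fold lower (1.55 to 1.96, log2 fold-change -0.80, FDR 3.9e-20), short of the fold required for a call. The log2 fold-changes differed by 3.03 between the pairs (95% counting interval 2.79 to 3.28). The annotated exons of TGFB1 (chr19:41301587-41353911 on the minus strand in GRCh38) share 215 bases, 6.64% of their length, with HNRNPUL1 on the opposite strand. HNRNPUL1 had 1544, 2578, 1295 and 1624 counts in the same order of libraries, and whether the counting used strand is not given in the sources used here.

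TGFB2, a ligand with the same receptors, was the lowest gene of the 10 per length in 3 of the 4 libraries. It had 14 counts (Hep3B), 2 (Hep3B-C), 30 (Huh7) and 1 (Huh7-C), or 4.83, 0.431, 6.61 and 0.231 CPM. Both HCSC values were under the floor of 3 counts, and both HCC values were above it. The HCSC to HCC ratio was 0.0891 in the Hep3B pair (95% counting interval 0.00983 to 0.388, FDR 0.00014) and 0.0349 in the Huh7 pair (0.000855 to 0.210, FDR 2.5e-07), and both were called down. With GC and length trends removed the log2 fold-change of the Hep3B pair went from -3.22 to -1.80, without a call, and that of the Huh7 pair from -4.28 to -4.49. The difference in log2 fold-change between the pairs was 1.06 with an interval of -1.99 to 4.12, which these counts could not narrow. An annotated transcript within the gene, TGFB2-OT1, covers 1371 of its exon bases on the same strand and was not listed as a gene of its own.

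TGFBR2, the type II receptor, was the more abundant receptor per length in all libraries. Its counts were 363 (Hep3B), 150 (Hep3B-C), 976 (Huh7) and 1297 (Huh7-C), or 125, 32.3, 215 and 299 CPM. The Huh7 cultures stood above the Hep3B cultures, and Hep3B-C was lowest. TGFBR2 fell 3.88-fold in Hep3B-C (3.20 to 4.72, log2 fold-change -1.95, SE 0.14, FDR 1.2e-48). The level in Huh7-C was 1.39-fold higher (1.28 to 1.51, log2 fold-change 0.48, FDR 8.2e-14), under the fold for a call. The difference between the pairs was -2.43 on the log2 scale (-2.73 to -2.13), and Huh7-C held 9.26 times the CPM of Hep3B-C (7.82 to 11.0), against 1.72 times between the parental lines (1.52 to 1.94).

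TGFBR1, the type I receptor that phosphorylates SMAD2 and SMAD3, had 80, 51, 46 and 35 counts in Hep3B, Hep3B-C, Huh7 and Huh7-C. The levels were 27.6, 11.0, 10.1 and 8.08 CPM, so that Hep3B was high and the other 3 libraries were close together. It was called down in Hep3B-C (2.51-fold lower, 1.75 to 3.65, FDR 4.4e-07). This call was lost, at a log2 fold-change of -0.84, when libraries were scaled by TMM, and the value became 0.21 once trends with GC content and length were removed. The log2 fold-change in Huh7-C was -0.32 (SE 0.32, FDR 0.51). The ratio of TGFBR2 to TGFBR1 in RPKM was 6.25 (4.89 to 8.06) in Hep3B and 4.05 (2.93 to 5.68) in Hep3B-C, with overlapping intervals. In Huh7 and Huh7-C it was 29.2 (21.7 to 40.2) and 51.0 (36.5 to 73.6), also overlapping, and far above both Hep3B cultures.

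SMAD3, which binds DNA directly and carries much of the transcriptional response to TGF-beta, was lower in the HCSC library of both pairs. It had 383 counts (Hep3B), 122 (Hep3B-C), 370 (Huh7) and 202 (Huh7-C), or 132, 26.3, 81.5 and 46.6 CPM. Both HCC values were above both HCSC values. SMAD3 fell 5.03-fold in Hep3B-C (4.09 to 6.22, log2 fold-change -2.33, SE 0.15, FDR 2.5e-64), and it was 1.75-fold lower in Huh7-C (log2 fold-change -0.81, SE 0.13, FDR 7.6e-10), under the fold for a call. With GC and length trends removed the values were -1.85 and -1.10, the latter past the fold.

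SMAD2, the other receptor-activated SMAD of the pathway, had 203, 140, 229 and 241 counts in Hep3B, Hep3B-C, Huh7 and Huh7-C, or 70.1, 30.2, 50.5 and 55.6 CPM. Hep3B-C stood below the other 3 libraries, and the intervals of the 2 Huh7 cultures overlapped. The gene was called down in Hep3B-C (log2 fold-change -1.21, SE 0.16, FDR 3.3e-14), but the value was -0.73 under TMM scaling, without a call, and 0.63 once GC and length trends were removed. For Huh7-C the value was 0.14 (SE 0.13, FDR 0.52). Relative to SMAD2, SMAD3 was lower in both HCSC libraries. The SMAD3 to SMAD2 ratio in RPKM was 3.19 (95% counting interval 2.68 to 3.80) in Hep3B and 1.47 (1.15 to 1.89) in Hep3B-C, and 2.73 (2.31 to 3.23) in Huh7 and 1.42 (1.17 to 1.71) in Huh7-C. The intervals of HCC and HCSC were apart in both pairs, and those of the same kind of culture overlapped between the lines.

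SMAD4, which the receptor-activated SMADs of both the TGF-beta and BMP branches need, had 178, 74, 66 and 118 counts in Hep3B, Hep3B-C, Huh7 and Huh7-C. In CPM it stood at 61.5, 15.9, 14.5 and 27.2. Hep3B was high, Huh7-C intermediate, and Hep3B-C and Huh7 were close. SMAD4 fell 3.86-fold in Hep3B-C (2.92 to 5.13, FDR 2.7e-24), and the log2 fold-change of -1.94 became -0.33 with GC and length trends removed. In Huh7-C the level was 1.87-fold higher (1.37 to 2.57, FDR 0.00023), under the fold for a call. The pairs differed by -2.84 on the log2 scale (-3.42 to -2.26).

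SMAD7, the pathway's feedback inhibitor, had 41 counts (Hep3B), 2 (Hep3B-C), 21 (Huh7) and 6 (Huh7-C), or 14.2, 0.431, 4.63 and 1.38 CPM. Both HCC values were above both HCSC values, and Hep3B-C was under the floor. The ratio of Hep3B-C to Hep3B was 0.0304 (0.00357 to 0.117, FDR 1.1e-14), a call that GC and length correction left at a log2 fold-change of -4.83 against -4.73 before. In the Huh7 pair the ratio was 0.299 (0.0988 to 0.766), with a log2 fold-change of -1.66 and an FDR of 0.018, which missed the threshold. The difference between the pairs was -3.07 (-5.31 to -0.84).

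SMAD6, which mainly restrains the BMP branch, was a low gene in all libraries, with 6, 5, 23 and 15 counts in Hep3B, Hep3B-C, Huh7 and Huh7-C. Its CPM was 2.07, 1.08, 5.07 and 3.46. The log2 fold-change was -0.92 (SE 0.84, FDR 0.34) in Hep3B-C and -0.53 (SE 0.47, FDR 0.45) in Huh7-C. A change within the counting interval of the Hep3B pair, which ran from a ratio of 0.126 to 2.04, was not detectable at this depth.

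ID1 is a helix-loop-helix protein without a DNA-binding region that holds back differentiation factors, and its gene is a direct target of BMP-activated SMADs. It had 230 counts (Hep3B), 4 (Hep3B-C), 835 (Huh7) and 336 (Huh7-C), or 79.4, 0.862, 184 and 77.5 CPM. Hep3B-C was near the floor, and Huh7-C lay close to Hep3B. ID1 fell 92.2-fold in Hep3B-C (35.5 to 341, log2 fold-change -6.36, SE 0.69, FDR 9.3e-88), and 0.2% of the genes in that pair with at least 20 counts had a lower fold-change. It fell 2.37-fold in Huh7-C (2.09 to 2.70, log2 fold-change -1.25, SE 0.09, FDR 4.6e-43), where 4.2% of such genes were lower. The pairs differed by -5.11 on the log2 scale (-6.47 to -3.76). ID1 (chr20:31605283-31606515 on the plus strand in GRCh38) and TGFB2 were the 2 of 10 genes called down in both pairs, and 1.49% of the 13917 genes listed in both pairs were. The call of TGFB2 in the Hep3B pair did not outlast the removal of GC and length trends, and those of ID1 did. No gene of the 10 was called up in both.

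**Figure D2:**
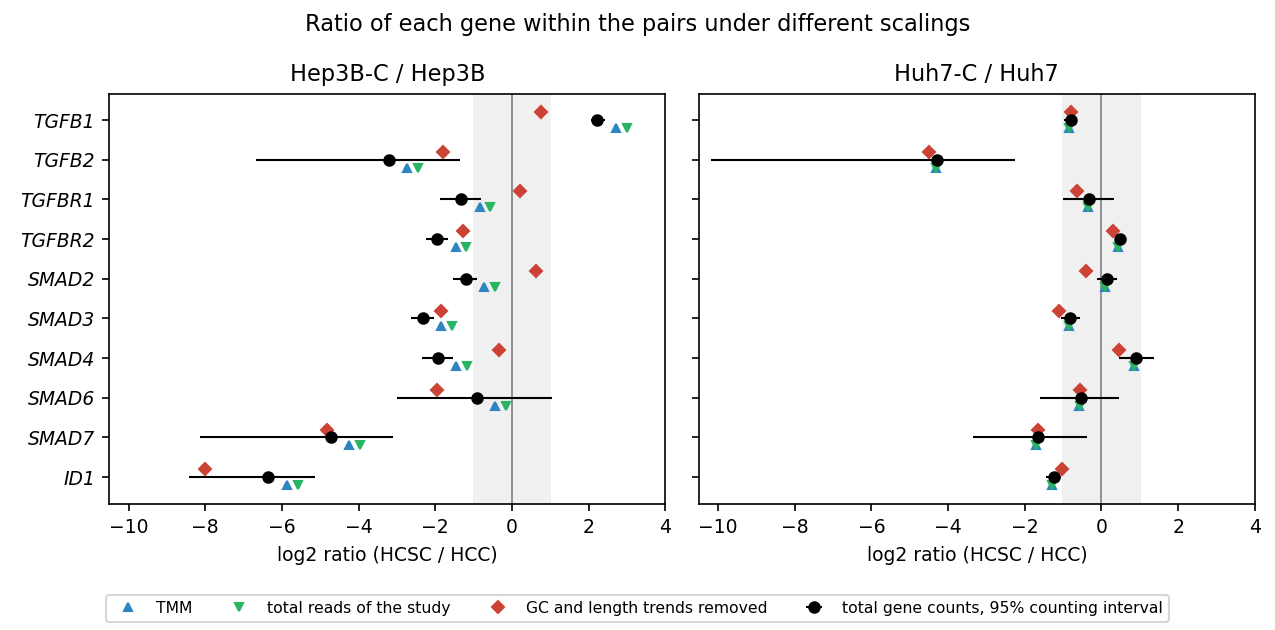
Log2 ratio of HCSC to HCC for each gene in the Hep3B pair (left) and Huh7 pair (right), scaled to total gene counts (black, 0.5 added to each count, with the 95% counting interval of the ratio), by TMM, to the study's total reads, or after removal of GC and length trends, with the shaded band at less than a log2 fold-change of 1. ID1, SMAD7, SMAD3, SMAD4, SMAD6, TGFBR2 and TGFB2 stay left of 0 in the Hep3B pair under every scaling shown. TGFBR1 and SMAD2 cross 0, and the counting interval of SMAD6 spans it.

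Fold-changes in the Hep3B pair ran with the GC content of the gene. Across genes with at least 20 counts, the Spearman correlation of log2 fold-change with transcript GC was 0.63 over 11338 genes in the Hep3B pair and -0.06 over 11060 genes in the Huh7 pair, and with gene length it was -0.43 and 0.32. Genes of a library share its preparation, so these are descriptions across genes and not tests. TGFB1 had the highest GC of the 10 genes (63.5%), and SMAD2, TGFB2, TGFBR1 and SMAD4 the lowest (38.6% to 41.1%). With both trends removed, 4 genes (TGFBR2, SMAD3, SMAD7 and ID1) were called down in the Hep3B pair and none up, beside 3439 down and 703 up of all genes. TGFB1 then had a log2 fold-change of 0.76 in the Hep3B pair. ID1 had -8.01, farther from 0 than before, and -7.28 with the length trend alone removed. Other scalings moved the whole Hep3B pair. TMM raised its median by 0.48 and the study's total reads by 0.77 on the log2 scale, which turned a split of 2043 up and 4708 down into 3056 and 3134 or 3745 and 2337. TGFBR1 and SMAD2 lost their calls under both. In the Huh7 pair no scaling moved the median by more than 0.07.

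**Figure D3:**
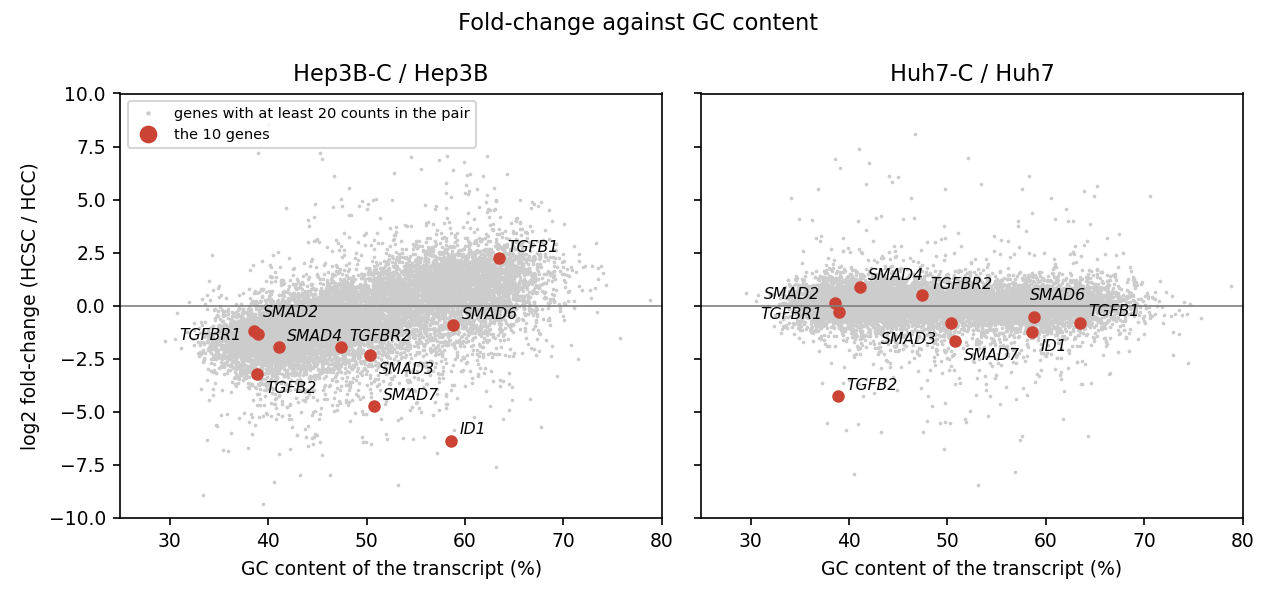
Log2 fold-change (HCSC/HCC) against the GC content of the transcript (%) for genes with at least 20 counts in the Hep3B pair (left) and Huh7 pair (right), with the 10 genes in red. In the Hep3B pair the cloud climbs with GC, and ID1 (GC 58.6%) lies at -6.36, far below genes of like GC, whereas TGFB1 (63.5%) lies at 2.23 near the upper right of the cloud.

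The surrounding pathway was described with a list of 57 further TGF-beta and BMP genes. Of the 52 listed in each pair, 27 were called down and 2 up in the Hep3B pair (median log2 fold-change -1.55), and 7 were called down and 3 up in the Huh7 pair (median -0.29). Over all genes 30.4% were called down and 13.2% up in the Hep3B pair (median -0.68), and 4.15% and 4.19% in the Huh7 pair (median 0.07). By role, 6 of 11 receptors, 3 of 4 BMP SMADs and their adaptor, 5 of 11 inhibitors and corepressors and 6 of 7 targets were called down in the Hep3B pair. In the Huh7 pair these counts were 0 of 8, 0 of 4, 1 of 12 and 3 of 9. Of 12 ligands, 4 were called down and 1 up in the Hep3B pair, and 2 down and 2 up in the Huh7 pair, and with so few genes a role, several of these counts are near the shares over all genes. Of the 7 latency and activation genes, 3 were called down in the Hep3B pair and 1 in the Huh7 pair. With GC and length trends removed, 27 genes of the list were called down and 0 up in the Hep3B pair, beside 3439 and 703 of all genes. The 27 were 3 receptors, 3 BMP SMADs and adaptor, 6 inhibitors and corepressors, 6 targets, 6 ligands and 3 latency and activation genes. In the Huh7 pair 9 were then called down and 3 up, beside 606 and 429 of all genes.

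Of the 48 genes of the list present in both pairs, 4 were called down in both (INHBB, TGFBI, ID2 and ID4) and none up in both, beside 208 down and 79 up of all 13917 genes. ID2, a relative of ID1, had 966 counts in Hep3B and 86 in Hep3B-C, and 422 in Huh7 and 93 in Huh7-C. It fell 18.0-fold (14.4 to 22.7, FDR 4.3e-290) and 4.33-fold (3.46 to 5.48, FDR 2.7e-46). ID4 had 16 counts in Hep3B and none in Hep3B-C, at least 8.55-fold lower against the floor of 3 counts in that library (FDR 4.6e-07). In the Huh7 pair ID4 had 30 and 3 counts, a parental to HCSC ratio of 9.55 (2.97 to 48.9, FDR 9.7e-06). ID3 had 38 counts in Hep3B and none in Hep3B-C (FDR 5.5e-16), a ratio of 20.3 with Hep3B-C at the floor and an interval that began at 15.7. In the Huh7 pair ID3 had 405 and 310 counts (log2 fold-change -0.32, SE 0.11, FDR 0.012) and was not called. All 4 ID genes were therefore called down in Hep3B-C, and 3 of them in Huh7-C.

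TGFBI, an extracellular matrix protein named for its induction by TGF-beta, had 1145 and 459 counts in Hep3B and Hep3B-C, and 2145 and 203 in Huh7 and Huh7-C. It fell to a ratio of 0.250 (0.224 to 0.279) in Hep3B-C and 0.0991 (0.0854 to 0.115) in Huh7-C, and these intervals did not overlap. INHBB, which encodes an activin subunit, had 61 and 23 counts in the Hep3B pair (4.25-fold lower, 2.59 to 7.20) and 227 and 34 in the Huh7 pair (6.38-fold lower, 4.43 to 9.44). CCN2, a matricellular growth factor listed as CTGF, fell 5.82-fold in Hep3B-C (167 and 46 counts, FDR 9.6e-32) and had 94 and 93 counts in Huh7 and Huh7-C.

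The remaining named genes of the list were called in 1 pair or in opposite directions. SKIL, a corepressor of SMAD complexes, fell 9.72-fold in Hep3B-C (455 and 75 counts, FDR 1.7e-111), with 52 and 34 counts in the Huh7 pair (FDR 0.19). ZFYVE9, the adaptor that presents SMAD2 and SMAD3 to the receptor, fell 7.12-fold in Hep3B-C (120 and 27 counts, FDR 5e-26) and rose 2.67-fold in Huh7-C (88 and 224 counts, FDR 5.1e-15). BMP4 rose 2.22-fold in Huh7-C (50 and 106 counts, FDR 1.4e-05), and GDF15, a stress-induced member of the ligand family, rose 2.07-fold (714 and 1412 counts, FDR 6.5e-58). The 2 genes called up in the Hep3B pair were INHBC, an activin subunit of liver (15 and 54 counts, log2 fold-change 1.13, FDR 0.0086), and CHRD, an extracellular BMP antagonist (19 and 64 counts, 1.05, FDR 0.007). Both lost the call once GC and length trends were removed, at 0.20 and -0.23.

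**Figure D4:**
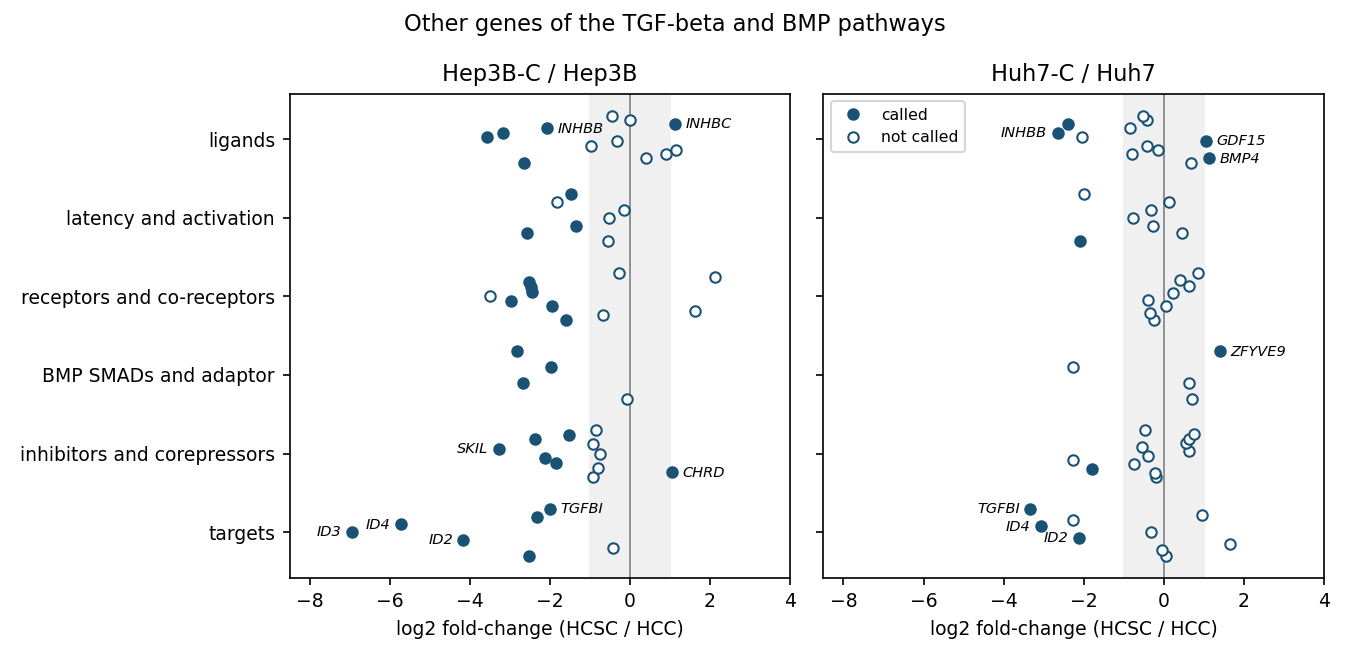
Log2 fold-change (HCSC/HCC, 0.5 added to each count) of the other TGF-beta and BMP pathway genes by role in the Hep3B pair (left) and Huh7 pair (right), filled where called and open where not, with the shaded band at less than a log2 fold-change of 1. In the Hep3B pair 27 points are called on the left and 2 on the right, and the ID genes lie farthest left, where the points of ID3 and ID4 rest on 0 counts in Hep3B-C and have no defined size; in the Huh7 pair 7 and 3 are called.

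HCSC and HCC were last compared over all 4 libraries with edgeR's quasi-likelihood test, with the parental line as a block, so that each group held 2 samples from different lines. The log2 fold-changes were -3.36 for ID1, -3.81 for TGFB2, -3.03 for SMAD7, -1.40 for SMAD3 and 0.89 for TGFB1. None of the 10 genes was called (Benjamini-Hochberg adjusted p = 0.43 for ID1, 0.51 for TGFB2, 0.92 for SMAD7 and 1.0 for SMAD3 and TGFB1), beside 0.0257% of 11691 genes. At an unadjusted p under 0.05, edgeR had 3 of the 10 genes (ID1, TGFB2 and SMAD7) and 372 of all 11691. DESeq2 with the same block called 0 and had 1 under that p, with 432 of 16370 genes overall. The other 5 genes, TGFBR1, TGFBR2, SMAD2, SMAD4 and SMAD6, had log2 fold-changes between -0.66 and -0.36. With GC and length trends removed in the fit with the block, ID1 was called (log2 fold-change -3.70, adjusted p = 9.3e-06), and SMAD7 had an adjusted p of 0.09. Calls were more frequent in that fit, with 29 up and 63 down of all 11599 genes tested.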

How the data were processed

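The mRNA libraries of 4 hepatoma cultures, made from total RNA, were sequenced (Illumina Genome Analyzer II). The authors mapped the filtered reads with NextGENe to NCBI Build 36.1 and deposited raw counts of reads for each gene with its symbol, Entrez ID and length. Gene annotation, strand and the handling of multiply matching reads are not given in the sources used here. Each pair's files listed only genes with a count in that pair. The genes and lists were chosen with earlier results of these data known.

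CPM, RPKM and exact Poisson 95% intervals were computed from the counts. Pairs were compared by the Audic-Claverie test with a doubled tail, as ratios of total gene counts with 0.5 added to each count for the log2 fold-change. Intervals of ratios were exact binomial ones. The joint fit used edgeR 4.0.16 (TMM, filterByExpr), with genes missing from a pair's files at 0. The parental line named in the labels pairs the samples, and the deviations from the group means correlated between Hep3B and Hep3B-C across 12614 genes (Pearson 0.53). The parental line therefore entered the fit as a replicate block, which left 1 residual degree of freedom. P-values of the joint fit measure only the spread left between these libraries after the block, and those of the pair test cover counting error only.

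GC content and positions came from GENCODE release 29 (GRCh38), as annotation only, and promoter sequences from RefSeq (GRCh38.p14). Trends with GC and length were smoothed over genes of a pair with a span of 0.3 and subtracted. Other settings were TMM scaling, DESeq2 1.42.0 size factors, the total reads of the study, 5 added to each count, at least 10 counts in the pair, an exact binomial test, an assumed biological coefficient of variation (BCV) of 0.2 or 0.4, and, in the joint fit, no replicate block, no filter, each library left out and DESeq2's test. The Audic-Claverie test, the removal of GC and length trends within pairs and the joint fits without trend removal were checked on simulated counts. The simulated pairs held a GC trend or no trend, and a length trend was not simulated. The removal of the length trend alone, the exact binomial test, the tests at an assumed BCV and the joint fit with trends removed were not checked. The joint simulation used a BCV of 0.2, under the common BCV of 0.514 fitted to the data. Of the pathway list, genes called alike in both pairs were named, as were the 3 most up- and 3 most down-regulated of each pair with at least 20 counts in 1 library, and a few textbook targets, CCN2 and ID2 among them, whatever their values. Not every gene under this rule is reported here. Python 3.11.15 and R 4.3.3 were used.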

Additional observations from a re-analysis of the deposited data

Results flagged for a closer look

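In 3 genes the HCSC to HCC ratios of the 2 pairs lay on opposite sides of 1, each with a counting interval that did not reach 1. The log2 fold-change of the Hep3B pair minus that of the Huh7 pair was 3.03 for TGFB1 (95% counting interval 2.79 to 3.28), -2.43 for TGFBR2 (-2.73 to -2.13) and -2.84 for SMAD4 (-3.42 to -2.26). With 1 library per culture these differences were not tested against replicates. After removal of GC and length trends the values of the Hep3B and Huh7 pairs were 0.76 and -0.80 for TGFB1, -1.28 and 0.31 for TGFBR2, and -0.33 and 0.45 for SMAD4, still opposite in sign.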

How the results depend on the processing

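With 1 library per culture, spread between cultures was assumed, not measured. At an assumed BCV of 0.4, calls among the 10 genes went from 1 up and 8 down to 0 and 2 (SMAD7 and ID1) in the Hep3B pair and from 2 down to 0 in the Huh7 pair, and at 0.2 to 1 (TGFB2) in the latter. Calls in the pathway list went from 27 down to 2 and from 7 down to 0 at 0.4, and its 2 and 3 up calls went to 0 at either BCV. With 5 added to each count the 2 up calls of the Hep3B pair also went to 0. Calls over all genes at an assumed BCV or with 5 added are not reported here. Removing the length trend left 5 of the 10 genes down and 1 pathway gene up in the Hep3B pair, and removing GC and length trends left 4 down and 0 up, with 0 pathway genes up. Over all genes of that pair, 4284 were called down and 1660 up with the length trend removed. With both trends removed, 3439 were called down and 703 up. Reversed values after removal were 0.21 for TGFBR1 and 0.63 for SMAD2 in the Hep3B pair and -0.39 for SMAD2 in the Huh7 pair, and 0.05 and -0.39 for SMAD2 with length alone. In the joint fit 0 of the 10 genes were called. With GC and length trends removed and the replicate block, 1 (ID1) was, beside 29 up and 63 down of all 11599 genes. There, SMAD2 reversed to 0.30 and SMAD4 to 0.23, and without the replicate block TGFBR2 stood at 0.01. Without trend removal none of the 10 was called with or without the block, though ID1 went from -3.36 to -1.74 without it, and trend removal was run with the block only. The fits that left out 1 library had no replicate block, so their values also hold the difference between the Hep3B and Huh7 lines. Log2 fold-changes then ran from -0.38 to 1.95 for TGFB1 (negative without Hep3B-C) and -2.16 to 0.86 for TGFBR2 (positive without Huh7 or Hep3B-C). The range was -1.21 to 0.61 for SMAD4 (positive without Hep3B), -1.50 to 0.40 for SMAD6 (positive without Huh7) and -6.99 to -0.74 for ID1. Of 100 single-gene values in each pair, 77 and 93 kept direction and call. The minimum count, the exact binomial test and the assumed BCVs reuse the main fold-change, so direction could not change there. In the Huh7 pair, 8 of the 10 genes had no call to lose. The cause of the shifts between settings, those with trends removed among them, was not tested. Counts of 1 to 6 in HCSC limit TGFB2, SMAD7 and, in Hep3B-C, SMAD6 and ID1.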

Other observations

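Some genes that make or process the ligands had values outside the rule for named genes, and were chosen here after their values were seen. FURIN, a convertase that cleaves the TGF-beta precursors, had 832 counts in Hep3B and 910 in Hep3B-C (log2 fold-change -0.55, and -1.55 with GC and length trends removed), and 2675 in Huh7 against 594 in Huh7-C, a 4.30-fold fall (95% counting interval 3.93 to 4.71, FDR 2.2e-290). THBS1, a matrix protein that can release latent TGF-beta, fell 2.77-fold in Hep3B-C (2847 and 1646 counts, FDR 1.3e-247, log2 fold-change -1.47, and -0.50 with GC and length trends removed) and had 14 and 3 counts in Huh7 and Huh7-C. INHBE, a liver activin subunit, fell 5.36-fold in Huh7-C (174 and 31 counts, FDR 9.2e-23), while in the Hep3B pair it had 282 and 456 counts (log2 fold-change 0.01, FDR 0.98, and -0.70 with the trends removed).

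BMP6, the ligand that sets hepcidin expression in liver, had 235 counts in Huh7 and 129 in Huh7-C (log2 fold-change -0.80, FDR 1.9e-06, under the fold for a call), against 0 in Hep3B and 1 in Hep3B-C. The BMP-activated SMADs were likewise chosen after their values were seen. SMAD5 fell in Hep3B-C (607 and 151 counts, log2 fold-change -2.68, FDR 3.9e-120, and -1.04 with GC and length trends removed). SMAD9 was called down there on few counts (13 and 5, log2 fold-change -1.98, FDR 0.007), and had 2 and 0 counts in Huh7 and Huh7-C. SMAD1 had 30, 46, 34 and 53 counts in Hep3B, Hep3B-C, Huh7 and Huh7-C and was not called in either pair.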
